A study of Mus musculus with 8 samples.

Results

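Metallothioneins, the zinc-responsive transcription factor Mtf1 and 4 metal transporters were examined in auditory nerves of mice at postnatal day 21. The 8 genes listed were Mt1, Mt2, Mt3, Mtf1, Slc30a1, Slc30a3, Slc30a10 and Slc39a14. 7 of them had a row in the deposited table of 15035 genes, and Slc30a3, the vesicular zinc transporter, was not analysed here. The genes were listed by family and function, except that Mt2 was chosen by its normalized counts in this contrast, being lower in the libraries labelled heterozygote than in wild type. The difference of Mt2 between genotypes is therefore given as a description, without a test. All 7 measured genes passed the filter on low values (4 or more libraries with 10 or more normalized counts).

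The study sequenced poly(A) RNA from 4 wild-type mice (replicates 1 to 4) and 4 mice heterozygous for Mef2c, as labelled (replicates 5 to 8). Mef2c encodes a MADS-box transcription factor, and the comparison addresses how loss of 1 copy alters the transcripts of the nerve. The nerves of the 2 cochleas of a mouse were pooled, so each library stands for 1 mouse, and no group received a treatment that the labels name. The labels give neither strain nor sex, and do not say in which cells the Mef2c allele was changed. The transcript of Mef2c went against the label: it had 402.2 to 508.7 normalized counts in wild type, against 583.3 to 735.1 in the libraries labelled heterozygote (log2 fold change 0.53, SE 0.13, limma-trend adjusted p 0.186), so every direction below is between libraries as labelled.

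The estimated depth was 13363056 to 21505981 reads per library, and wild-type libraries 1 and 4 were the shallowest. 3 reads correspond to 2.37 to 3.89 normalized counts, and the lowest value of any member was 74.5. All 10 markers of spiral ganglion neurons and the 6 of Schwann cells used here were measured, with Nefl at 33661.5 to 42068.7 normalized counts and the Schwann cell markers at a sum of 44331 to 59999. Wild-type library 1 and heterozygote-labelled library 5 were low in Xist, which splits the libraries into 6 and 2.

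Metallothioneins are small cysteine-rich proteins that bind zinc and copper and buffer their free concentration. Mt1 and Mt2 are expressed in most tissues and are induced by zinc, other metals, glucocorticoids and oxidative stress, whereas Mt3 is known from the brain, where neurons and astrocytes express it, and responds little to metals. Mtf1 is the zinc-finger factor that senses free zinc and activates Mt1, Mt2 and Slc30a1 through metal response elements. Slc30a proteins move zinc out of the cytosol and Slc39a proteins move it in. Slc30a10 is known mainly as a manganese exporter, and Slc39a14 is an importer of zinc, manganese and iron.

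Mt1, Mt2 and Mt3 are neighbours on mouse chromosome 8 and are read from the same strand. In GENCODE M21 (GRCm38, the build that mm10 names), Mt3 lies at chr8:94152607-94154146, Mt2 at chr8:94172664-94173568 and Mt1 at chr8:94179082-94180327. With Mt4, which was not analysed here, they span 43.1 kb. Their principal transcripts have 3 exons each and are short, with 549 bases for Mt1, 511 for Mt2 and 536 for Mt3. Mtf1 lies at chr4:124802104-124849800, Slc30a1 at chr1:191906767-191913247, Slc30a10 at chr1:185454848-185468762 and Slc39a14 at chr14:70303469-70351425, with principal transcripts of 7631, 5244, 5836 and 4926 bases.

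The starts of the 3 metallothionein genes and of Slc30a1 are shown because they are the genes through which Mtf1 is best known to act, beside Mt3, which is not. Each line gives 300 bases on the gene's own strand, 250 before the RefSeq start and 50 from it (GRCm38.p6), with capitals for the core of the metal response element, TGCACNC or TGCGCNC, on either strand. The windows are chr8:94178839-94179138 for Mt1, chr8:94172368-94172667 for Mt2, chr8:94152357-94152656 for Mt3 and chr1:191906531-191906830 for Slc30a1, all on the plus strand.
Mt1: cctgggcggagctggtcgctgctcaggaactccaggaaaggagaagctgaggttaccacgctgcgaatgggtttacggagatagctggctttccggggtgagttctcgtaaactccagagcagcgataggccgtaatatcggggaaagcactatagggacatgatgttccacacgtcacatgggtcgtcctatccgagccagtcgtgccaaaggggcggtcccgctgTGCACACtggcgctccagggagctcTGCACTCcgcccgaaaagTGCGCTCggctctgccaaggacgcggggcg
Mt2: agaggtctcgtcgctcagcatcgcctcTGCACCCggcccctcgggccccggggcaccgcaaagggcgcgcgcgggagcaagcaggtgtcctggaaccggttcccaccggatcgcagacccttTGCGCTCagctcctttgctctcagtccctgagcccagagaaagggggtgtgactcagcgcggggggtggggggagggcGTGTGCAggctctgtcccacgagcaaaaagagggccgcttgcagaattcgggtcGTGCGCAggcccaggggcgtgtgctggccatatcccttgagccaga
Mt3: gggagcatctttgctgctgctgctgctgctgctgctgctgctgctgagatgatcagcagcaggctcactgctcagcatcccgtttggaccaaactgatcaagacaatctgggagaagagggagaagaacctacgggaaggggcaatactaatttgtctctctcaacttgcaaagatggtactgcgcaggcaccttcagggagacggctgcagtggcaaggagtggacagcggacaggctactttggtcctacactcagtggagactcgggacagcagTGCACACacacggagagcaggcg
Slc30a1: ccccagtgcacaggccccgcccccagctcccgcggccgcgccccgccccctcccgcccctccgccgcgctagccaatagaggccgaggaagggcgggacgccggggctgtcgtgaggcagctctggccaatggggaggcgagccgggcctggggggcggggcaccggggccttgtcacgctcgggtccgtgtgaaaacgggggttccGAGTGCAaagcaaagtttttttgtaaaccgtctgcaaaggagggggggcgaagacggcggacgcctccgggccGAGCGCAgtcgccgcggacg

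The Mt2 window held 4 cores, the Mt1 window 3, the Slc30a1 window 2 and the Mt3 window 1. Of 32851 RefSeq promoter windows of the same length, 25.7% held at least 1 core, 7.11% at least 2, 1.97% at least 3 and 0.517% at least 4. In Mt1 the first bases of the cores lay at -23, 2 and 20, counted from 0 at the annotated start, and in Mt2 at -223, -128, -50 and 4. The single core of Mt3 began at 27, and the cores of Slc30a1 at -43 and 30. Cores past the annotated RefSeq start were thus found in all 4 genes. Whether transcription begins at these annotated starts was not tested, so such cores may lie before the start in use. The GENCODE start of Mt2 (94172664) lies near the end of its window, past the core at 4. Bases outside the windows were not searched. The Slc30a10 window held 3 cores, of which a forward and a reverse one overlap, and the Mtf1 window held 0. These are matches of letters and not measured binding sites.

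Mt1 had 4949.7, 3500.4, 2821.4 and 5179.3 normalized counts in wild-type libraries 1 to 4, and 2231.1, 2612.2, 2333.3 and 1854.6 in heterozygote-labelled libraries 5 to 8. Wild-type libraries 1 and 4 were the highest, and the genotypes did not overlap, although wild-type library 3 lay close to library 6. Means ± SD were 4113 ± 1137 against 2258 ± 313 (n = 4 each), and the log2 fold change was -0.83 ± 0.18 (SE). Mt1 did not pass 0.05 among all genes (limma-trend adjusted p 0.160, range over 19 alternatives 0.0142 to 0.528).

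Mt2 had 2114.1, 1813.7, 1478.5 and 2054.6 normalized counts in wild-type libraries 1 to 4, and the libraries labelled heterozygote had 817.9, 982, 976.3 and 846.7. The gap between the groups was wide, since the lowest wild-type library stood far above the highest library labelled heterozygote. The means were 1865 ± 289 and 906 ± 86 (SD, n = 4 each), which is 51.4% lower, and the log2 fold change was -1.03 ± 0.13 (SE). Relative to the mean, the spread among the libraries labelled heterozygote was smaller than for Mt1 and Mt3.

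Mt3 had 6278.6, 4635.9, 3879.2 and 5338.7 normalized counts in wild type, against 3702.9, 3435.6, 3415.2 and 2588.7 in the libraries labelled heterozygote. As in Mt1, wild-type libraries 1 and 4 were highest and library 3 lowest, and the genotypes were separated by a narrow gap. Mt3 averaged 5033 ± 1022 and 3286 ± 483 (SD, n = 4 each), and its log2 fold change of -0.61 ± 0.15 (SE) did not pass (limma-trend adjusted p 0.211, range over 19 alternatives 0.0362 to 0.590). Together the 3 metallothioneins took 0.0642% ± 0.0134 of all normalized counts in wild type, against 0.0381% ± 0.0042 for the heterozygote label (SD, n = 4 each).

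Mtf1, the activator of Mt1 and Mt2, had 459.8, 442.1, 528.6 and 482.3 normalized counts in wild type, against 587.4, 482.6, 509 and 550.7 in the libraries labelled heterozygote. The groups overlapped, and the difference was within the spread between libraries (log2 fold change 0.15, SE 0.12, limma-trend adjusted p 0.560). Its sign turned when a trend with transcript length was removed from each library (log2 fold change -0.059).

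Slc30a1, the zinc exporter of the plasma membrane, had 515.2, 537.8, 534.2 and 506.1 normalized counts in wild type, against 607.9, 598.3, 503.1 and 630.5 in the libraries labelled heterozygote. 3 of the 4 libraries labelled heterozygote lay above all wild-type libraries, and library 7 lay below them. It did not pass (log2 fold change 0.16 ± 0.11 SE, limma-trend adjusted p 0.538). With the length trend removed it was 0.022.

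Slc30a10 was the lowest of the measured members, with 257, 127, 155.4 and 128.6 normalized counts in wild type, against 95.4, 128.3, 74.5 and 115.9 in the libraries labelled heterozygote. Wild-type library 1 was far above the others, and library 6 reached into the wild-type range. It did not pass either (log2 fold change -0.65 ± 0.28 SE, limma-trend adjusted p 0.329), and its log2 fold change was -0.42 without wild-type library 1, which moved it by more than 1.5 times. Without both libraries low in Xist it was -0.39.

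Slc39a14, the importer, had 639.8, 854, 855.2 and 782.7 normalized counts in wild type, against 853.8, 733.6, 736.9 and 810.1 in the libraries labelled heterozygote. The wild-type libraries spanned the whole range of the others, and the log2 fold change was 0.01 ± 0.12 (SE, limma-trend adjusted p 0.980). Its sign depended on the scaling (-0.0067 with upper-quartile scaling and -0.0082 with quantile normalization), so no direction is given for it.

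**Figure D1:**
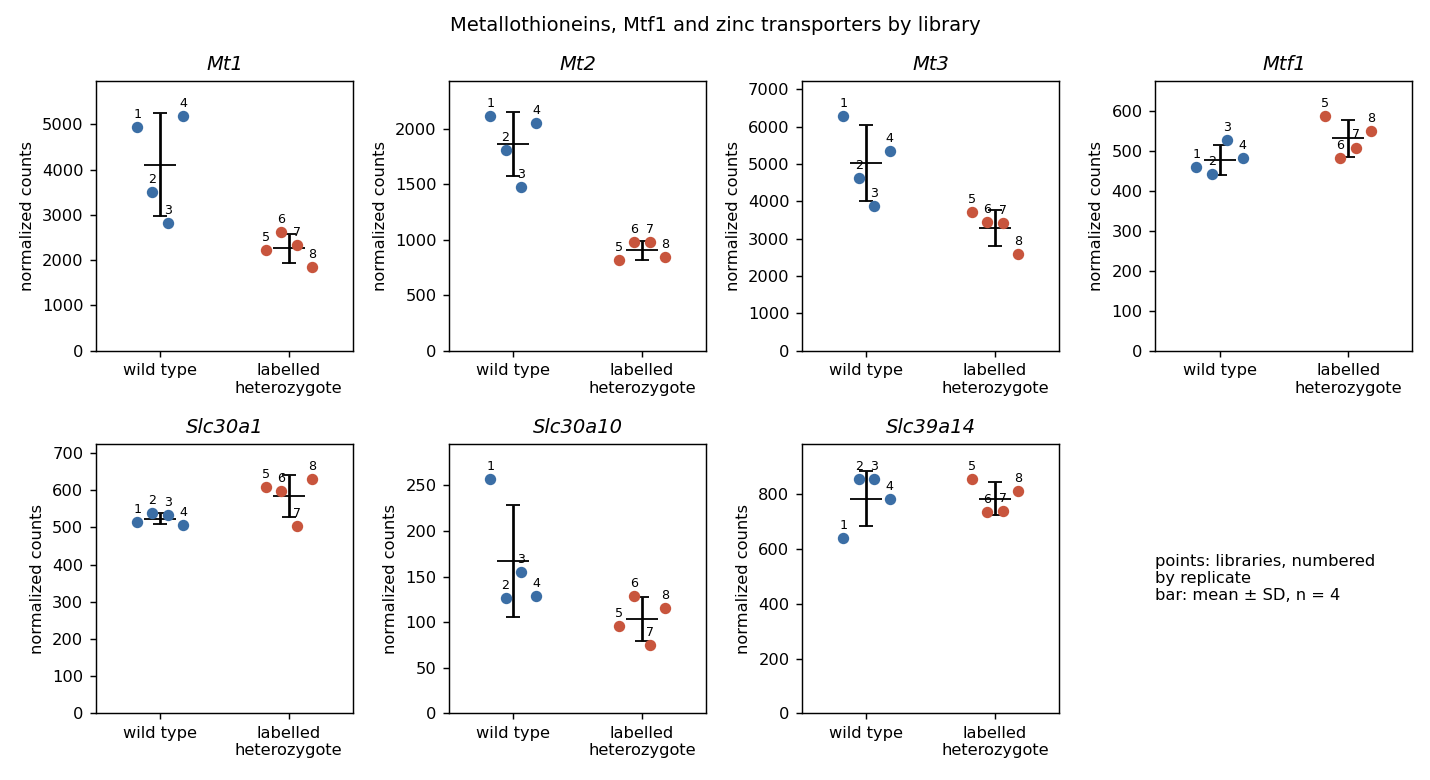
Normalized counts of the 7 measured genes in each library, by genotype as labelled, with numbered points for replicates and bars for the mean ± SD (n = 4). The genotypes do not overlap in Mt1, Mt2 and Mt3, where wild-type library 3 (2821.4, 1478.5 and 3879.2) is the lowest of its group, and they overlap in the other 4 genes.

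Of the 6 measured genes other than Mt2, 0 passed a limma-trend adjusted p of 0.05, against 0.0807% of the 14870 genes tested. At an unadjusted p under 0.05 there were 3 (Mt1, Mt3 and Slc30a10), against 14.1% of all genes. With array quality weights 1 passed (Mt1), where 0.646% of all genes did, and without wild-type library 3 there were 2 (Mt1 and Mt3), where 1.49% of all genes did. An FDR under 0.05 in the authors' deposited table was given for 2 of the 6, against 1.61% of the genes there, namely Mt1 (ratio 0.549, FDR 0.00125) and Mt3 (ratio 0.653, FDR 0.0167). The genotypes did not overlap, with wild type higher, in Mt1 and Mt3 of these 6, and in 3.86% of all genes. Since the genes were listed with results of this contrast known, these shares are given as counts only.

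Short transcripts as a class moved with these differences. Over 273 tested genes with a transcript of 400 to 700 bases, the 3 metallothioneins included, the median log2 fold change was -0.33 and 81.7% of the genes were lower in the libraries labelled heterozygote. Over all tested genes the median was 0.015 and 47.7% were lower. With the length trend removed from each library, the log2 fold change was -0.54 for Mt1, -0.73 for Mt2 and -0.31 for Mt3, so the differences were smaller and the direction was the same. How far the length trend accounts for them was not tested beyond this correction. The limma-trend adjusted p was then 0.0903 for Mt1 and 0.199 for Mt3. With the longest annotated transcript in place of the principal one, which is 1085 bases for Mt1, its log2 fold change was -0.63.

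**Figure D2:**
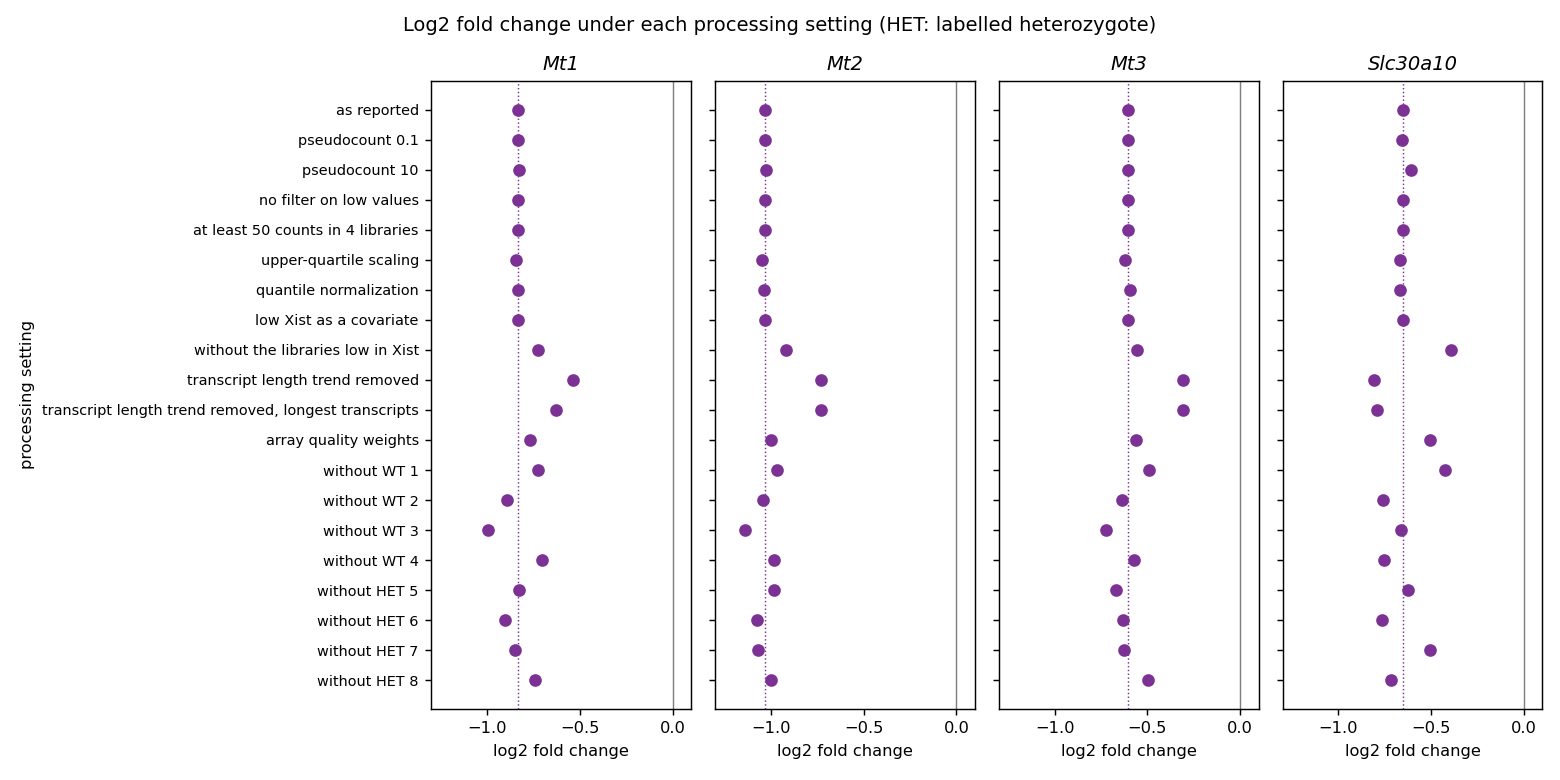
Log2 fold change (x axis, labelled heterozygote minus wild type) of Mt1, Mt2, Mt3 and Slc30a10 under each processing setting (y axis), with a dotted line at the reported value. All points lie below 0, and for the metallothioneins the 2 settings that remove the length trend give the smallest differences (Mt2 -0.73 with either transcript length).

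Levels were set against each other per kilobase of principal transcript. In wild type Mt3 stood first at 9390 ± 1907 normalized counts per kb, then Mt1 at 7491 ± 2072 and Mt2 at 3650 ± 565 (SD, n = 4 each). Far below came Slc39a14 at 158.9 ± 20.6, Slc30a1 at 99.8 ± 2.9, Mtf1 at 62.7 ± 4.9 and Slc30a10 at 28.6 ± 10.5 (SD, n = 4 each). The order was the same in all 8 libraries. Mt3 and Mt1 overlapped between libraries in wild type (7237 to 11714 and 5139 to 9434 per kb), and all other neighbours in the order were separate in wild type. In the libraries labelled heterozygote every pair of neighbours was separate in its range. By mean level per kb over all libraries, Mt3 was at rank 83, Mt1 at 128 and Mt2 at 337 of 14668 genes with a known length.

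The proportions among the metallothioneins were compared within libraries. The ratio of Mt2 to Mt1 was 0.466 ± 0.064 in wild type, against 0.404 ± 0.041 under the heterozygote label (SD, n = 4 each), on normalized counts. The ratio of Mt3 to Mt1 was 1.25 ± 0.15 and 1.46 ± 0.15 (SD, n = 4 each). Both ratios overlapped between genotypes, at 0.397 to 0.524 against 0.367 to 0.457 for Mt2 to Mt1 and at 1.03 to 1.37 against 1.32 to 1.66 for Mt3 to Mt1.

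Variation among libraries of the same genotype was not used to choose these genes and was tested separately. With each genotype centred on its own mean, Mt1 and Mt2 correlated at Pearson's r 0.904 over the 8 libraries (exact permutation p 0.0174 with libraries exchanged within genotypes, two-sided, 0.0391 adjusted over 3 pairs) and Spearman's rho 0.905 (exact p 0.0174, adjusted 0.0521). Mt1 and Mt3 had r 0.867 (exact p 0.0260, adjusted 0.0391) and rho 0.810 (exact p 0.0729, adjusted 0.109). For Mt2 and Mt3 r was 0.725 (exact p 0.0868) and rho 0.643 (exact p 0.156), which did not pass. Without the 2 libraries farthest from the median of the first gene, r was 0.800, 0.872 and 0.957 for the 3 pairs.

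The median of the 270 other genes with a transcript of 400 to 700 bases was read in each library as well. Its deviation from the genotype mean was 0.36, -0.089, -0.33 and 0.052 in wild-type libraries 1 to 4 (log2), where Mt2 had 0.19, -0.027, -0.32 and 0.15. In the libraries labelled heterozygote it was 0.073, 0.037, 0.082 and -0.19, where Mt2 had -0.14, 0.12, 0.11 and -0.092. The signs of Mt2 and of the short-gene median were the same in every library except library 5. With the length trend removed, no pair of metallothioneins passed: r was 0.27 for Mt1 and Mt2, 0.27 for Mt1 and Mt3 and -0.61 for Mt2 and Mt3 (exact permutation p 0.536, 0.510 and 0.240). The correlation within genotypes therefore did not hold after the correction, which was added after seeing the data.

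**Figure D3:**
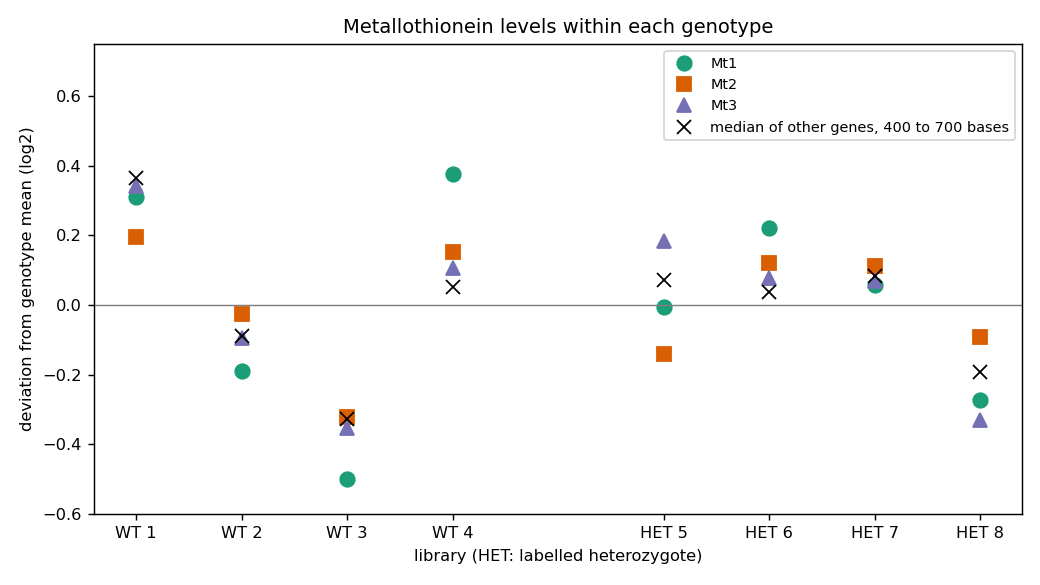
Deviation of Mt1, Mt2 and Mt3 from their genotype mean (y axis, log2) in each library (x axis), with crosses for the median of 270 other genes of 400 to 700 bases. Wild-type library 3 is low and wild-type library 1 high in all 4 measures, the short-gene median included (-0.33 and 0.36), and in library 5 Mt2 (-0.14) and the short-gene median (0.073) lie on opposite sides of 0.

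The genes whose genotype-centred values followed Mt2 most closely over the 8 libraries, among 13355 genes with a mean of at least 50 normalized counts, were Tor1b (r 0.988), Haus4 (0.986), Erap1 (0.978), Bfsp2 (0.970) and Zfp809 (0.969). Mt1 was at rank 116 in that order and Mt3 at 1121. Closest to Mt1 were Nme3 (r 0.996), Fbxl15, Copz1, Pfdn2 and Phgdh (0.973), with Mt2 at rank 165. These are the top of a ranking over many genes and 8 libraries and are given as a description. Mtf1 had r -0.75 with Mt2 and -0.48 with Mt1 on the same measure.

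The other members of both zinc transporter families were read from the same fit. 17 of the 20 other Slc30a and Slc39a genes were tested, and 0 passed a limma-trend adjusted p of 0.05. 9 had a positive and 8 a negative log2 fold change, with a median of 0.010 against 0.015 over all genes. 2 had an unadjusted p under 0.05 (14.1% of all genes), and 1 had an FDR under 0.05 in the authors' deposited table (1.61% of the genes there). Leaving out any 1 library gave 0 as well.

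Among the importers, Slc39a12, a zinc importer known from the brain, had the largest difference of the family. It had 394.5, 395.9, 321.7 and 251.2 normalized counts in wild-type libraries 1 to 4, and the libraries labelled heterozygote had 103.2, 222.2, 208.3 and 178.1. The groups did not overlap, and library 5 was the lowest. The log2 fold change, -0.97 ± 0.25 (SE), did not pass (limma-trend adjusted p 0.214, range over 19 alternatives 0.0799 to 0.590). With the length trend removed the log2 fold change was -0.97 again. It was the 1 gene of the family with an FDR under 0.05 in the authors' deposited table. Slc39a8, an importer of zinc and manganese, had a log2 fold change of -0.22 and Slc39a6 of 0.17 (limma-trend adjusted p 0.484 and 0.493). These moved to -0.13 without wild-type library 1 for Slc39a8 and to 0.097 without library 5 for Slc39a6, and to -0.12 and 0.092 without both libraries low in Xist. Slc39a8 was at -0.13 with array quality weights, and Slc39a6 at 0.11 with the length trend removed.

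Of the 6 other exporters tested, Slc30a9 had a log2 fold change of -0.23 (unadjusted p 0.0322, limma-trend adjusted p 0.321). It had 3318.3 to 3895.9 normalized counts in wild type, against 2661.9 to 3207.6 in the libraries labelled heterozygote, with no overlap, and with the length trend removed its log2 fold change was -0.38. Slc30a4 and Slc30a6 had log2 fold changes of 0.21 and -0.19 (limma-trend adjusted p 0.399 and 0.626). With the length trend removed Slc30a4 was at 0.065, and Slc30a6 was at -0.11 without library 8 and at -0.12 with the trend over longest transcripts removed. Slc30a8, Slc39a4 and Slc39a5 were not analysed here.

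**Figure D4:**
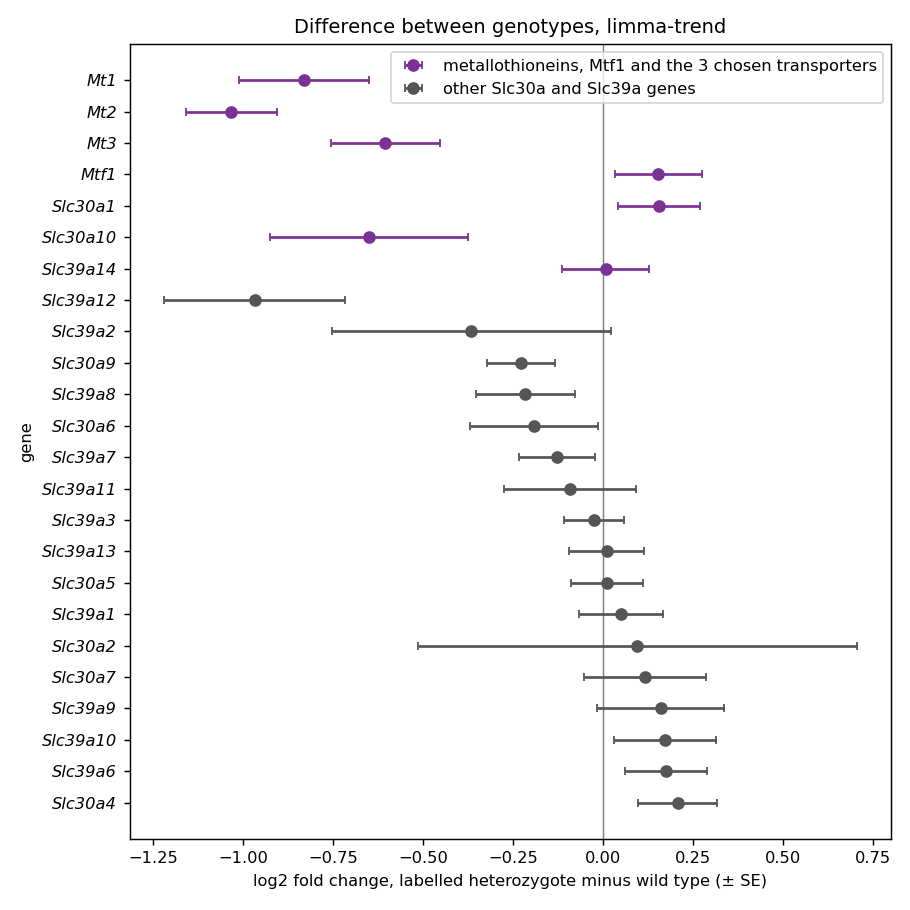
Log2 fold change (x axis, labelled heterozygote minus wild type, bars ± SE) of the 7 measured genes and the 17 other Slc30a and Slc39a genes (y axis). Mt1 (-0.83), Mt2 (-1.03), Mt3 (-0.61) and Slc39a12 (-0.97) lie farthest from 0 beside Slc30a10 (-0.65), and the other transporters apart from Slc39a2 (-0.37) lie between -0.23 and 0.21.

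Genes that handle other metals were taken for comparison. Of 26 copper, iron and manganese genes, 0 passed a limma-trend adjusted p of 0.05, 5 had an unadjusted p under 0.05 (14.1% of all genes), and 2 (Cox17 and Fth1) had an FDR under 0.05 in the authors' deposited table (1.61% of the genes there). The median log2 fold change was -0.19 over 12 copper genes and 0.062 over 14 iron and manganese genes. Fth1, the heavy chain of the iron store ferritin, had 69659.1 to 93880.5 normalized counts in wild type, against 47636.8 to 58666.9 in the libraries labelled heterozygote. Its log2 fold change was -0.60 with a limma-trend adjusted p of 0.214, and it was -0.48 with the length trend removed and -0.19 with quantile normalization. The copper chaperones Cox17 and Atox1 had log2 fold changes of -0.65 and -0.55 (limma-trend adjusted p 0.220 and 0.262), and Commd1 had -0.45 (0.319). With the length trend removed Atox1 was at -0.25, Cox17 at -0.70 and Commd1 at -0.55. The longest principal transcripts of these genes, which that correction used, have 541, 3690 and 4508 bases in that order. Which transcript of each gene the nerve expressed was not tested. Trf (transferrin) and Steap3, a metalloreductase, had 0.18 and 0.24 (0.458 and 0.495). Steap3 was at 0.11 with the length trend removed, at 0.42 without both libraries low in Xist, and at 0.37 when wild-type library 1, 0.15 when wild-type library 4 and 0.14 when library 6 was left out. Without wild-type library 3, 3 of the 26 passed, against 1.49% of all genes, namely Fth1, Cox17 and Atox1, all lower in the libraries labelled heterozygote.

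8 of 9 oligodendrocyte markers and 6 of 9 astrocyte markers had negative log2 fold changes, where 47.7% of all tested genes did. In whole tissue, fewer cells of a type, less RNA per cell and a difference in the tissue taken cannot be told apart. Of 9 astrocyte markers 6 had a negative log2 fold change, with a median of -0.47. 0 passed a limma-trend adjusted p of 0.05, against 0.0807% of all genes. 4 had an unadjusted p under 0.05 (14.1% of all genes), and 2 an FDR under 0.05 in the authors' deposited table (1.61% of the genes there). The astrocyte median was -0.25 without both libraries low in Xist, -0.32 without library 5 and -0.58 with the length trend removed. The summed level of the 9 was 50026.9 to 73242.1 normalized counts in wild type, against 44166.7 to 69982.7 in the libraries labelled heterozygote. S100b made up the largest part, with 21758 to 32838.7 and 20788.5 to 39352.4 normalized counts. Whether each of these markers came from astrocytes alone was not tested. Gfap, the intermediate filament of astrocytes, had a log2 fold change of -0.99 (limma-trend adjusted p 0.160), and the 3 with positive values were Gjb6 (0.13), Slc1a3 (0.077) and S100b (0.048). Of 9 oligodendrocyte markers 8 were negative and 3 passed (Mag, Mog and Mobp), against 0.0807% of all genes. The median was -0.86, and sums were 125462 to 164486 in wild type against 64425 to 85861 normalized counts. 7 of the 9 had an unadjusted p under 0.05 (14.1% of all genes). 7 had an FDR under 0.05 in the authors' deposited table (1.61% of the genes there). Mbp alone had 94406.8 to 128044 normalized counts in wild type, against 50268.6 to 65103.6, and so made up most of the sums. Whether each marker came from oligodendrocytes alone was not tested. With 1 library left out 8 or 9 oligodendrocyte markers were tested (8 without wild-type library 1 or 2 or library 7 or 8). Of them 0 to 6 passed. There were 0 when wild-type library 2 or 4 or library 8 was absent, where 0 of all genes passed. There were 2 without wild-type library 1, where 16 of all genes passed, and 2 without library 7, where 6 did. There were 6 without wild-type library 3, where 1.49% of all genes passed. No marker of these 2 lists was at 0 in any library, and Opalin was the lowest with 3.6 to 27.3 normalized counts. Library 5 had the lowest Gfap, Mobp and Slc39a12 and the lowest Mt2 of the libraries labelled heterozygote, but the highest Mt3 among them.

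Neutrophil and osteoblast markers had positive log2 fold changes. All 4 measured neutrophil markers were positive with a median of 3.67, and 0 passed a limma-trend adjusted p of 0.05. 3 of them (S100a8, S100a9 and Ngp) had an unadjusted p under 0.05 (14.1% of all genes). The same 3 had an FDR under 0.05 in the authors' deposited table (1.61% of the genes there). S100a8, a calcium-binding protein of neutrophils, had 53.2, 9.5, 30.2 and 12.1 normalized counts in wild type, against 231.4, 88, 1145 and 827 in the libraries labelled heterozygote (log2 fold change 4.09, SE 0.75, limma-trend adjusted p 0.0763). The genotypes did not overlap in S100a8, S100a9 and Ngp, and libraries 7 and 8 were the highest in each. The share of all genes without overlap in this direction was not counted. The summed level of the 4 was 106.3 to 2346 normalized counts in wild type, against 649.1 to 6030. 3 of the 4 neutrophil markers passed with array quality weights (0.646% of all genes) and without wild-type library 3 (1.49% of all genes). 3 also passed without library 6, where 18 genes passed among all tested. Of 6 osteoblast markers all were positive with a median of 0.83, and 0 passed. 4 of the 6 had an unadjusted p under 0.05 (14.1% of all genes). 1, Alpl, had an FDR under 0.05 in the authors' deposited table (1.61% of the genes there). The median of the 6 was 0.53 without wild-type library 4 and 1.32 without both libraries low in Xist. The sums of the 6 overlapped at 4745 to 17759 in wild type against 10469 to 23720 normalized counts. The part of the glial, neutrophil and osteoblast markers in the metallothionein differences was not tested.

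Median log2 fold changes were 0.016 for spiral ganglion neuron markers (5 of 10 positive), -0.12 for Schwann cell markers (1 of 6) and 0.054 for endothelial markers (3 of 5). 0 of these genes passed a limma-trend adjusted p of 0.05. 1 had an unadjusted p under 0.05 (14.1% of all genes), and 0 an FDR under 0.05 in the authors' deposited table (1.61% of the genes there). The genes that flank the metallothioneins on chromosome 8 were read too. The 3 nearest measured protein-coding genes on each side (Bbs2, Ogfod1 and Nudt21, and Nup93, Herpud1 and Nlrc5) had log2 fold changes from -0.17 to 0.84 with a median of 0.14. 0 of 6 passed a limma-trend adjusted p of 0.05. 1 had an unadjusted p under 0.05 (Nup93, log2 fold change 0.33), against 14.1% of all genes. Nlrc5, at 11.7 to 74.9 normalized counts, gave the highest value. 2 of the 6 flanking genes had a negative log2 fold change, against 47.7% of all tested genes. Their transcripts have 1952 to 7578 bases, longer than the class of 400 to 700 bases that holds the metallothioneins.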

How the data were processed

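The labels' protocols state poly(A) selection, strand-specific libraries from 50 ng of total RNA, and exclusion of samples with an RNA integrity number under 7. The submitters' processing notes name STAR, Partek, DESeq2 and mm10, with no role or version. The authors deposited a signal per gene and sample, given to 1 decimal, whose low values mostly lie on steps as read counts scaled per sample would. Per the file headers, the authors' deposited comparison has a p-value, an FDR, a ratio and the log2 of that ratio, and the unused signed fold change is a score. The counting method, its use of strand and the annotation are not given in the sources used here.

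The value of 1 read was estimated per library as the largest step that divides most values under 300 evenly (within 0.051). It divided 85.0% to 90.1% of values, too few for a count model. The 14870 genes with 10 or more normalized counts in 4 or more libraries were tested as log2(value + 1) with limma-trend, over all 8 libraries and with no covariate, and p-values were adjusted over all of them (Benjamini-Hochberg). Fold changes are on that scale. Nothing pairs the libraries, and each stands for 1 mouse. Lengths are those of the longest APPRIS principal transcript in GENCODE M21 (97.6% of genes had a length, and those without a principal transcript took their longest). The length correction subtracted, library by library, a loess trend (span 0.5) with length in the deviations from each gene's mean. Promoter windows are from RefSeq (GRCm38.p6) and matched 7 of 8 members by symbol. Slc39a14 had no entry.

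In data simulated for this comparison over 14806 genes, of which 197 were changed, limma-trend found 72.7% of the 2-fold and 91.8% of the 4-fold changes. It called 4 genes that had none. The simulated counts were drawn independently for each gene, with its mean and spread taken from these data. They held no variation shared by the genes of a library, such as the length trend. These shares are therefore a check of the method and not the power in the real libraries. Correlations used exact permutation within genotypes (576 arrangements). R 4.3.3, limma 3.58.1, Python 3.11.15, scipy 1.17.1 and matplotlib 3.10.9 were used. The genes described, the lists and the tests were chosen with earlier results of these data known. 2 of the listed markers are not reported here and are left out of the list counts and sums. Named genes were all members, up to 3 genes of each other list with the smallest unadjusted p, the 5 genes most correlated with Mt2 and with Mt1, Mef2c, and markers. Alternatives were other pseudocounts (0.1 and 10), filters (none, or at least 50), scalings, low Xist as a covariate or left out, array quality weights, the length corrections and each library left out.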

Additional observations from a re-analysis of the deposited data

Results flagged for a closer look

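Of 62 groups of 4 libraries checked, covering the genes named here and the summed marker lists, 1 had a library far from the others, where chance gives about 1 in 20. The summed neutrophil markers had a gap ratio of 0.885 in wild type, because library 1 had 2346 normalized counts against 106.3 to 364.8 in the other 3. Ltf made up 2176.4 of these. That library was also the highest in Mt2, Mt3 and Slc30a10. None of the metallothionein or transporter values met the same limit.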

How the results depend on the processing

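No paired analysis was possible because the replicate numbers are not shared between genotypes. The count of all genes passing a limma-trend adjusted p of 0.05 (12) was 7 with quantile normalization, 26 and 27 with the length trend removed (principal and longest transcripts) and 96 with array quality weights, and 0 to 221 when 1 library was left out (0 without wild-type library 2 or 4 or library 8, 221 without wild-type library 3). Of the members other than Mt2, 1 passed with array quality weights, and 0 to 2 when 1 library was left out. The copper and iron count was 0 to 3, and the count of other zinc transporters was 0 throughout. The log2 fold change of Mt2 was -0.73 in both length corrections and -1.14 to -0.97 when 1 library was left out, and Mt1 (-0.998 to -0.54), Mt3 (-0.72 to -0.31) and Slc30a10 (-0.81 to -0.39) kept their sign in all 19 alternatives.

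Mtf1 turned to -0.059 and -0.045 in the length corrections. Slc39a14 turned negative with upper-quartile scaling (-0.0067), quantile normalization (-0.0082), the length corrections (-0.11 and -0.10) and array quality weights (-0.076), without the libraries low in Xist (-0.13), and without wild-type library 1 (-0.086), library 5 (-0.034) or library 8 (-0.0090), and ran from -0.086 to 0.054 when 1 library was left out. The correlations within genotypes were 0.27 (Mt1 and Mt2), 0.27 (Mt1 and Mt3) and -0.61 (Mt2 and Mt3) with the length trend removed. With 1 library left out they were 0.792 to 0.962, 0.767 to 0.924 and 0.476 to 0.951. In 7 of 8 such fits neither pair with Mt1 passed an adjusted p of 0.05. Without library 5 every pair passed on Pearson's r (exact permutation, adjusted p 0.0208), Mt2 and Mt3 included. Each fit with 7 libraries had 144 arrangements, fewer than with all libraries, and this held without library 5 too. The lowest r of each pair came without wild-type library 3 (0.792, 0.767 and 0.476). The part of the number of arrangements in the lost passes was not tested, nor was the cause of the other changes. Depth did not limit the members, whose lowest value was 74.5 normalized counts.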

Other observations

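Genes were also grouped by the number of metal response element cores in their RefSeq promoter window, taking the window with the most cores where a gene had several. The median log2 fold change was 0.0072 over 6966 tested genes with none, 0.026 over 3160 with 1, 0.011 over 1131 with 2, 0.014 over 466 with 3 or more and 0.039 over 124 with 4 or more. Without the metallothioneins the median over the last group was 0.042. The median over all tested genes was 0.015. This grouping was chosen after the members' values had been seen.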
